A study of Rattus norvegicus with 9 samples.

Results

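Nuclear receptors and the coregulators that bind them were followed in cultured rat Sertoli cells across postnatal age. Genes were chosen by their symbols on the array: the numbered NR families, the retinoic acid, retinoid X, PPAR (alpha and delta only), oestrogen, oestrogen-related, ROR, vitamin D, progesterone and HNF4 receptors, the Ppargc1 and Ncoa coactivators, and corepressors that include Ncor1 and Nrip1. Nr4a1, Nr4a2, Nr4a3, Nr5a1 and Nr0b1 were left out by the rule, and the pattern does not cover Pparg or the androgen or thyroid hormone receptors. This gave 46 genes on 67 probes, of 35173 genes on the array. Of the 46, 33 passed a filter on dim probes, as did 22457 genes in all, and the other 13 were not tested.

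Nuclear receptors are transcription factors, most of which carry a ligand-binding domain. Steroids, retinoids, sterols, fatty acids and haem are among their ligands, and several receptors are called orphans because no ligand was known when they were named. A receptor recruits coactivators, which open chromatin, or corepressors, which bring in histone deacetylases. In the seminiferous tubule, Sertoli cells receive steroid and retinoid signals on behalf of the germ cells they surround, and lose the ability to divide as they mature.

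Sertoli cells came from rats of 3 ages, 5, 12 and 60 days, with 3 arrays at each age. All cells had spent 4 days in a defined growth factor medium and then received pulses of oFSH, an ovine follicle-stimulating hormone preparation, at 50 ng/ml together with testosterone at 1e-07 M for 11 h, so every level below is that of hormone-treated cells, and no culture without hormones was among the arrays. The labels do not state the strain, how pure the cells were, or whether animals were pooled, and p values then measure only the spread between these 9 arrays, which may be technical. Each replicate number is 1 slide that held 1 array of each age. Levels are log2 processed signals relative to the 75th percentile of each array, so that 0 marks that percentile. They are compared within a probe and not between probes.

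The RefSeq promoter table used here was matched for 37 of the 46 genes, with windows from 250 bases before the gene's start to 50 after it. Shown here are those of Nr2f1, the gene whose level differed most between ages, and of Nr1d1 and Nr0b2, which were both highest at 12 days. On build GRCr8 they lie at chr2:9785875-9786174 (minus strand), chr10:84231763-84232062 (minus strand) and chr5:151062910-151063209 (plus strand). Capitals mark matches to any of 5 motifs, searched on both strands. The first motif was AGGTCA, the half-site that many nuclear receptors read. An extended half-site that contains it, CAAGGTCA, was the next. The E-box read by clock proteins was searched as CACGTG. The cAMP response element was searched as TGACGTCA. The GC box was searched as GGGCGG.
Nr2f1: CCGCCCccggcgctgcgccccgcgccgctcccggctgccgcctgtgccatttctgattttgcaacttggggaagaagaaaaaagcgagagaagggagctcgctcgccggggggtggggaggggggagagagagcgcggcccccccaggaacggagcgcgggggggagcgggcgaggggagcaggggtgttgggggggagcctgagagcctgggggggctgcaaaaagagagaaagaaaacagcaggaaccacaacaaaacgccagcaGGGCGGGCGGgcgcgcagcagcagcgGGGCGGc
Nr1d1: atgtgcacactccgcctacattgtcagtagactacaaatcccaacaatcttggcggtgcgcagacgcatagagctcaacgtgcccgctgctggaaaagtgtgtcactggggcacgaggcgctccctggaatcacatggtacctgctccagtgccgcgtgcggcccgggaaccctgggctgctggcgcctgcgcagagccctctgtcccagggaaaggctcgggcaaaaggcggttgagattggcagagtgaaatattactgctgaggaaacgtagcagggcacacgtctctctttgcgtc
Nr0b2: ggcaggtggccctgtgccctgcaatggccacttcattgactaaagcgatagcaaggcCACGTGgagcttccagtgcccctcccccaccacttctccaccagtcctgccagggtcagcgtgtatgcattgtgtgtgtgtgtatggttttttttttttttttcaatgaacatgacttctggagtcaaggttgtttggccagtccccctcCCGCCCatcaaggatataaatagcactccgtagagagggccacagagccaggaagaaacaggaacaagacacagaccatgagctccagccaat
The Nr2f1 window held 4 GC boxes, partly overlapping, and was 70.3% G or C. In the Nr0b2 window there was 1 E-box and 1 GC box, and none of the 5 motifs occurred in the Nr1d1 window. Among 27457 promoter windows of the same length, a GC box occurred in 34.9%, an E-box in 6.65%, the half-site in 15.7%, the cAMP response element in 1.91% and the extended half-site in 1.48%. Of the 37 member windows, 21 held a GC box, 4 held the half-site, 2 held an E-box, 2 held the cAMP response element and 0 held the extended half-site. The half-site windows were those of Ncoa4, Ncoa6, Nr1d2 and Nr5a2. These matches describe the sequence only.

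Between 49.1% and 63.0% of probes were well above background on each array. Markers of Sertoli cells, 13 genes summed as linear levels in multiples of the 75th percentile, reached 43.2 to 47.1 at 5 days, 205 to 230 at 12 days and 298 to 323 at 60 days, and each of the 13 was well above background on at least 1 array of every age. Markers of other cells were present too. The sum of 12 spermatocyte markers was 0.199 to 0.265 at 5 days, 6.66 to 7.79 at 12 days and 93.0 to 181 at 60 days. The sum of 12 peritubular myoid cell and fibroblast markers was 553 to 1040 at 5 days, 335 to 468 at 12 days and 44.5 to 233 at 60 days. In bulk RNA, fewer cells of a type and less RNA per cell cannot be told apart.

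In what follows, rises and falls are differences with a Benjamini-Hochberg adjusted p under 0.05 in limma's moderated test, run over all 22457 genes, and such genes are termed called. At 12 against 5 days 6 of the 33 genes were called, where 12.4% of all genes tested were called. Of these 5 were higher, against 6.13% of all genes, and 1 was lower, against 6.32%. At 60 against 12 days 8 were called, against 25.3% of all genes, with 2 higher (12.3% of all genes) and 6 lower (13.1%). At 60 against 5 days 9 were called, against 35.4% of all genes, with 4 higher (17.3%) and 5 lower (18.1%). Across any age 12 genes were called, or 36.4%, against 36.7% of all genes, and these were the same 12 as the genes called in at least 1 of the 3 pairwise comparisons. The members' share was thus near that of all genes at 60 against 12 days (24.2%) and over any age, above it at 12 against 5 days (18.2%) and below it at 60 against 5 days (27.3%). These differences rest on few genes and were not tested. Without replicate 2 the order at 12 against 5 days turned round, to 3.03% of members and 3.78% of all genes. Their median log2 changes were 0.24, -0.39 and 0.15 in the 3 comparisons, beside 0.05, -0.16 and -0.09 for all genes. The 33 genes include some that passed the filter only through the age at which they were high, as Nr6a1 did. Nr5a2, Rxra and Ncoa6ip passed only through the ages at which they were higher. The calls of these genes are therefore not independent of the filter. In each called comparison the levels of both ages stood apart on all arrays, and the change had the same sign on all 3 slides. Calls with 3 arrays an age tend to show this, so it is no separate support. Its share over all called genes was not counted. With the slide as a block, 7, 13 and 13 members were called in the 3 comparisons, or 21.2%, 39.4% and 39.4%, against 17.7%, 34.2% and 44.4% of all genes, and each gene gained that way is named with its value below. Scaling to 7 spike-in probes instead moved the median of all genes by -1.34, 0.90 and -0.44 in the 3 comparisons and changed the split of calls. It gave 118 higher and 3369 lower at 12 against 5 days in place of 1376 and 1419, 3055 and 541 at 60 against 12 days in place of 2751 and 2932, and 1776 and 3048 at 60 against 5 days in place of 3884 and 4059. Under it no called member changed sign, but 13 of the 23 member calls were lost: both calls of Nr0b2, Nr1d1, Nr3c2 and Nr5a2, that of Rora, those of Nr3c1 and Ncoa6ip at 60 against 12 days, and those of Ncoa4 and Nr6a1 at 60 against 5 days. Some of these changes nearly vanished: at 12 against 5 days Nr0b2 went to 0.02, Rora to 0.27 and Nr3c2 to 0.30. Nr3c1 went to -0.26 at 60 against 12 days. Others stayed larger, such as Nr5a2 (1.55) and Nr6a1 (1.51) at 60 against 5 days. Of 65 calls of target and partner genes, 25 were lost and 0 changed sign under spike-in scaling. All rises and falls below are therefore relative to the 75th percentile. Leaving out replicate 2 kept 7 of the 23 calls. Normexp background correction, run on the same 6 arrays of replicates 1 and 3, kept 8: all of Nr2f1 and Nr2f2, that of Nr1d1 at 60 against 12 days, and those of Nr3c1 and Ncoa4 at 60 against 5 days. This setting also added an offset of 50 to every signal, where the 75th percentiles of the 6 arrays' processed signals were 149 to 323. An added constant shrinks log2 differences between dim signals, and its part in the lost or reversed calls was not tested.

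**Figure D1:**
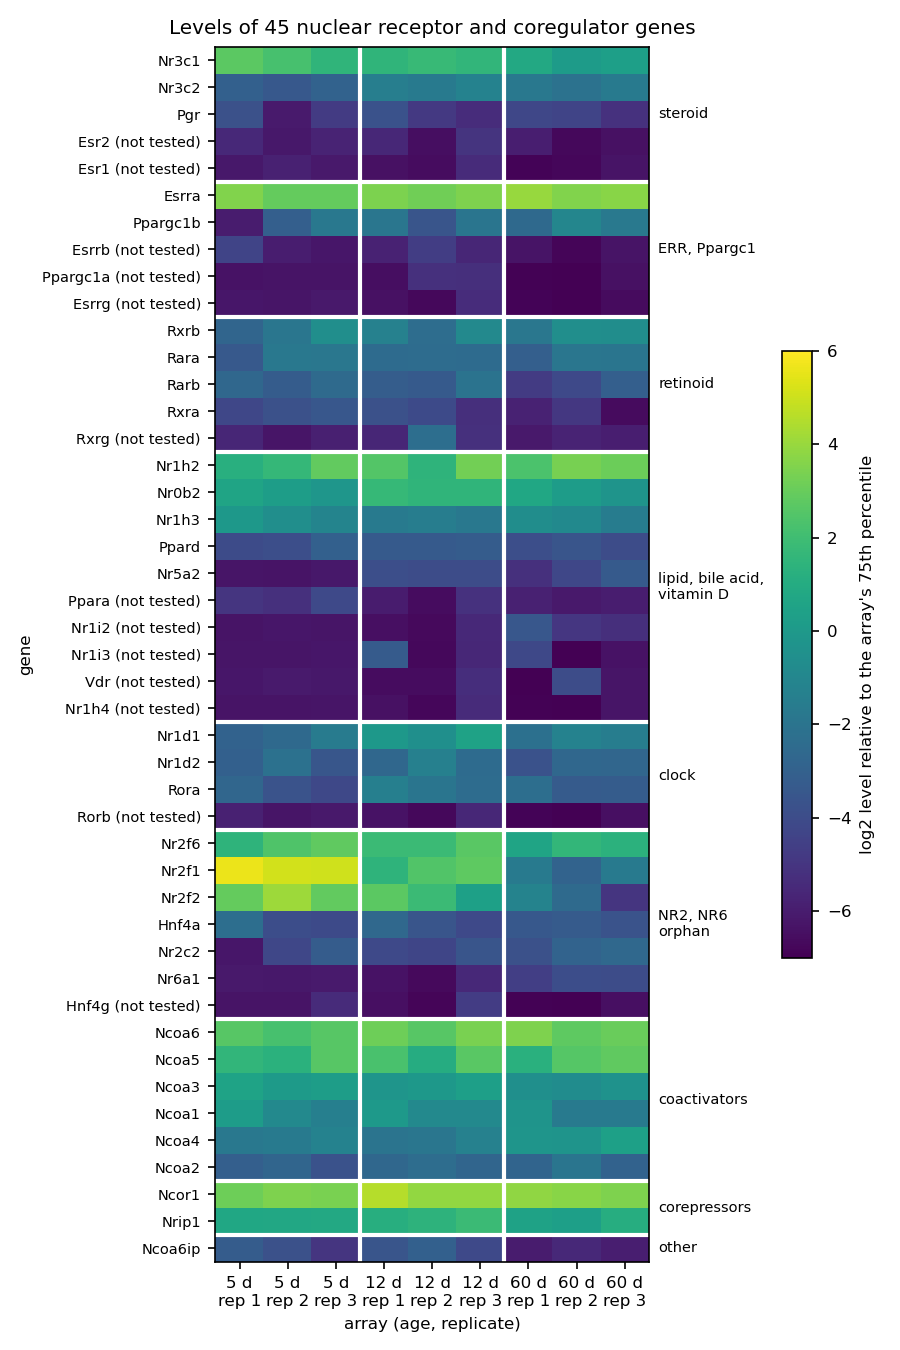
Levels of 45 of the 46 genes, one per line and grouped by role, on the 9 arrays ordered by age and replicate. Colour gives the log2 level relative to the array's 75th percentile and is to be read along a line, since probes differ in brightness. Nr2f1 and Nr2f2 fade across the ages, and the 13 genes marked as not tested stay near the dark end on most arrays.

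**Figure D2:**
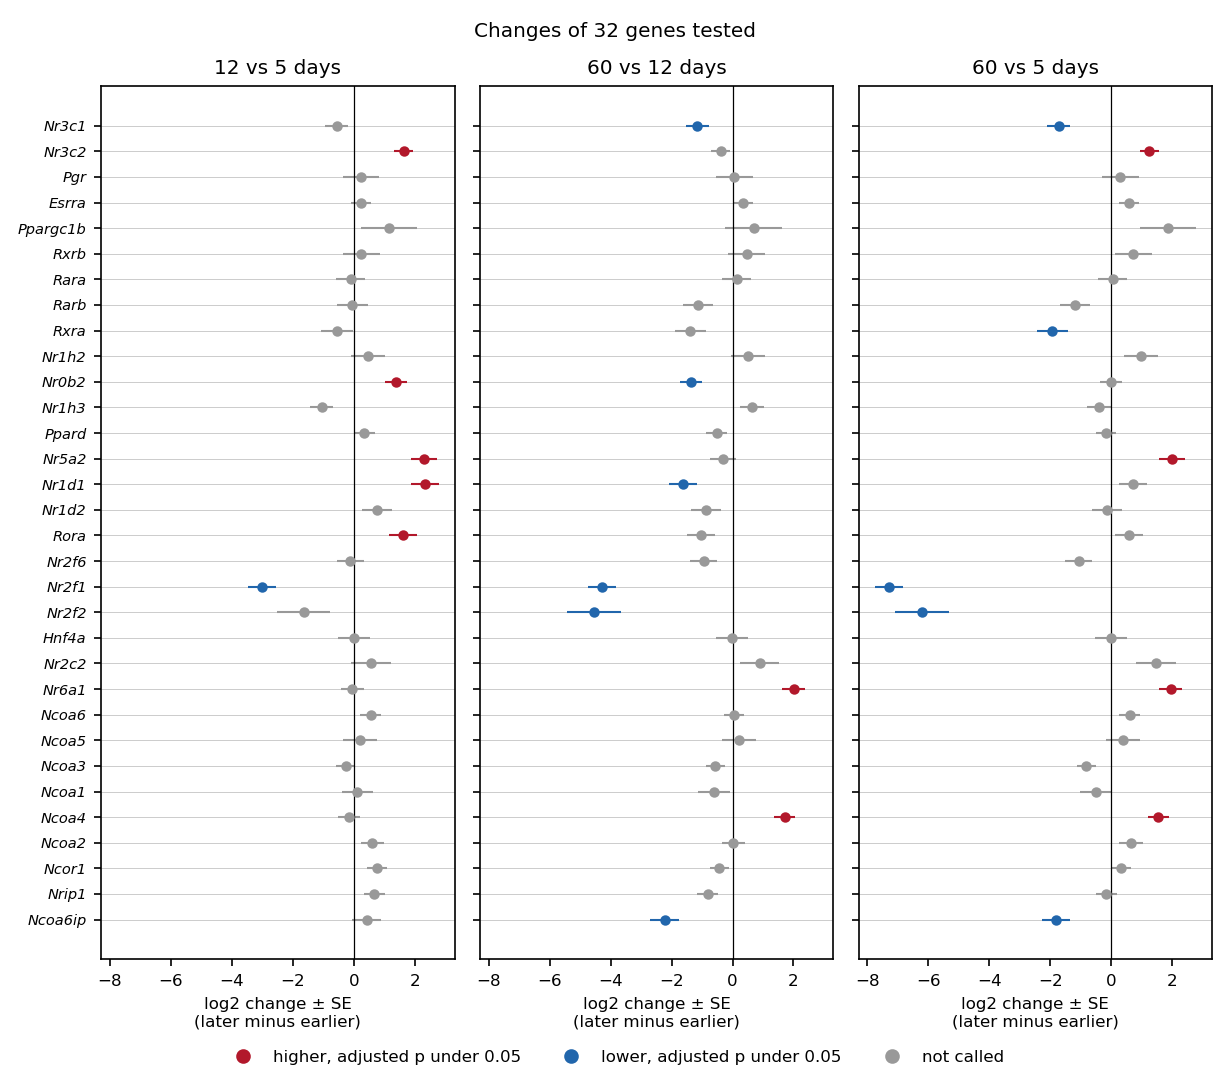
Log2 change with its standard error for 32 of the 33 genes tested, later age minus earlier age, in the 3 comparisons. Red points were called higher and blue points called lower in limma at an adjusted p under 0.05, and grey points were not called. Nr2f1 lies at -7.30 and Nr2f2 at -6.20 at 60 against 5 days, beyond every other gene drawn.

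The COUP transcription factors Nr2f1 and Nr2f2 changed most. Both are orphan receptors that mostly repress transcription, and in mice they are known from the mesenchyme of many organs and from neural development. Nr2f1 read 5.62, 5.12 and 5.04 at 5 days, 1.47, 2.49 and 2.77 at 12 days, and -1.64, -2.85 and -1.65 at 60 days. The 3 ages did not overlap, and all 9 arrays were well above background. Nr2f1 fell at each step, with a log2 change of -3.02 ± 0.46 (SE) at 12 against 5 days (8.10-fold, adjusted p = 0.00156) and of -4.29 ± 0.46 at 60 against 12 days (19.5-fold, adjusted p = 7.31e-05). Over the whole span, 60 against 5 days, the change was -7.30 ± 0.46 (158-fold, adjusted p = 1.27e-06). Within the slides the last difference was -7.25, -7.97 and -6.69. The probe lies at chr2:5765431-5765490 on build rn4. A second, dim Nr2f1 probe at chr2:5774480-5774539, well above background on 2 of 9 arrays, changed by -2.24 at 60 against 5 days (adjusted p = 0.0121 with every probe tested) and was not called in the other comparisons.

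Nr2f2 had levels of 2.95, 4.09 and 2.88 at 5 days, 2.73, 1.87 and 0.39 at 12 days, and -1.19, -2.52 and -4.97 at 60 days. Every array at 60 days lay below every array of the younger ages, and the 12-day arrays lay below those at 5 days. The 60-day arrays were the most scattered (SD 1.92, n = 3), and 1 of the 3 was not well above background. Nr2f2 fell by 4.55 ± 0.88 at 60 against 12 days (23.5-fold, adjusted p = 0.0031) and by 6.20 ± 0.88 at 60 against 5 days (73.5-fold, adjusted p = 0.000244). At 12 against 5 days the difference of -1.65 ± 0.88 was not called (adjusted p = 0.30), though it was under spike-in scaling (-2.99, adjusted p = 0.00297), and it ranged over the slides from -0.22 to -2.49. All of the calls of Nr2f1 and Nr2f2 held in every alternative in which the genes were tested.

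Myoid and fibroblast markers moved with both genes in part. The list's median log2 change was -0.15 at 12 against 5 days, where 8 of the 12 were not called, and -3.30 at 60 against 5 days. Of the 12 markers, 0 rose and 4 fell at 12 against 5 days, 0 rose and 7 fell at 60 against 12 days, and 0 rose and 9 fell at 60 against 5 days. The sums given above were lower at 60 days than at 5 days on all arrays, and Thy1 had no array well above background at 12 or 60 days. The marker levels within this list did not fall evenly: Tagln, the smooth muscle protein transgelin, averaged 5.21 at 60 days and 6.19 at 5 days and was not called (adjusted p = 0.215). Endothelial markers moved both ways: of 6, 0 rose and 2 fell at 12 against 5 days, 1 rose and 2 fell at 60 against 12 days, and 1 rose and 4 fell at 60 against 5 days. Their sum was 5.54 to 8.98 at 5 days, 8.57 to 15.0 at 12 days and 1.19 to 3.59 at 60 days, and Emcn at 12 days and Cdh5 at 60 days had no array well above background. The part of these cells in the fall of Nr2f1 and Nr2f2, or in the changes of the other genes described here, was not tested.

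**Figure D3:**
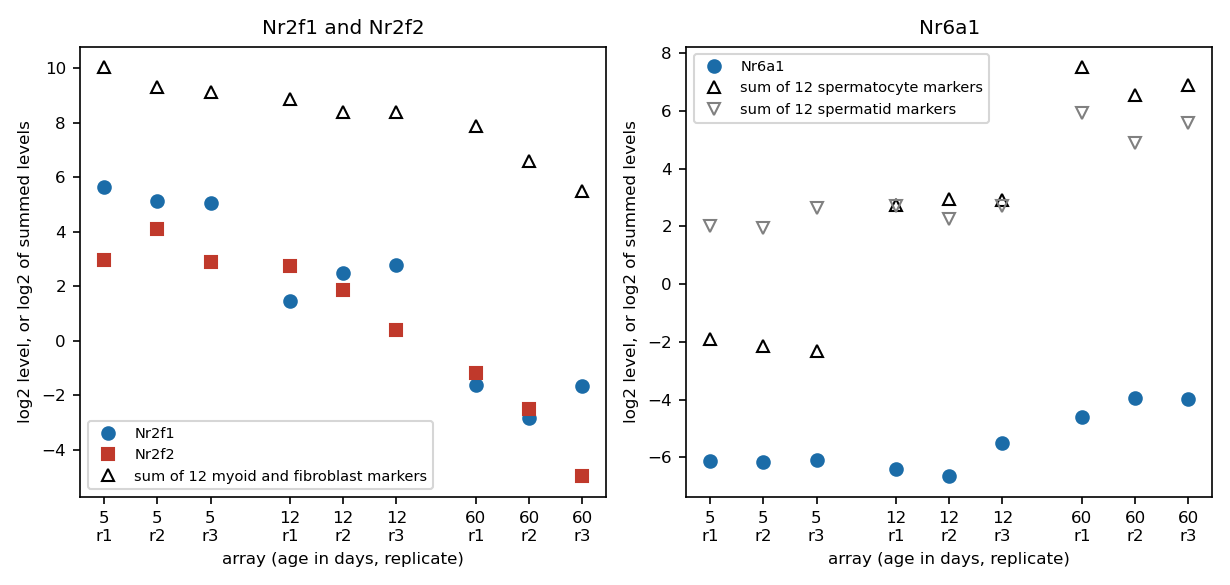
Levels of Nr2f1 and Nr2f2 (left) and of Nr6a1 (right) on the 9 arrays, as log2 level relative to the 75th percentile, beside the log2 of the summed levels of marker lists on the same arrays. Filled symbols are single genes and open triangles are sums of 12 markers. The myoid and fibroblast sum is lower on the 60-day arrays, at 44.5 to 233, than on the 5-day arrays, at 553 to 1040, and the spermatocyte sum is higher, at 93.0 to 181 against 0.199 to 0.265.

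Nr6a1, the germ cell nuclear factor, an orphan receptor best known in mice from embryos and maturing germ cells, did not exceed background at 5 or 12 days on any array. Its signals were -6.12, -6.17 and -6.08 at 5 days, -6.39, -6.65 and -5.50 at 12 days, and -4.60, -3.93 and -3.98 at 60 days. All 60-day arrays were higher, and 2 of the 3 were well above background. Nr6a1 passed the filter only through this age, at which it was then called higher, so its calls are not independent of the filter. Nr6a1 was called higher at 60 against 12 days (adjusted p = 0.00247) and at 60 against 5 days (adjusted p = 0.00182), with measured means of -4.17 at 60 days, -6.18 at 12 days and -6.13 at 5 days. No fold is given, since the 60-day mean did not exceed the lowest signal that counted as above background at the younger ages. The call at 60 against 12 days was lost without replicate 2 (adjusted p = 0.0805). With normexp background correction on replicates 1 and 3 the differences turned to -0.28 and -0.18 and were not called. Germ cell markers rose at the same step: the 12 spermatocyte markers all rose at 60 against 12 days, and 11 of 12 spermatid markers rose, their sum being 4.74 to 6.59 at 12 days and 29.3 to 61.1 at 60 days. At 12 against 5 days 9 of the 12 spermatocyte markers and 0 of the 12 spermatid markers rose, while Nr6a1 was above background at neither age. The part of germ cells in the Nr6a1 signal was not tested.

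The other NR2 receptors were not called. Nr2f6, a further COUP family member, read 1.48, 2.41 and 2.82 at 5 days, 1.87, 1.88 and 2.65 at 12 days, and 0.61, 1.59 and 1.34 at 60 days. Its difference of -1.06 ± 0.44 at 60 against 5 days missed the threshold (adjusted p = 0.086), was called with the slide as a block (adjusted p = 0.0218) and was called without 5-day replicate 1 (adjusted p = 0.0313). At 60 against 12 days the Nr2f6 difference of -0.95 ± 0.44 was likewise called with the block (adjusted p = 0.0431 against 0.144 without it). Nr2c2, the orphan receptor TR4, averaged -4.55 at 5 days, -3.99 at 12 days and -3.10 at 60 days, and its difference of 1.46 ± 0.65 at 60 against 5 days (adjusted p = 0.11) was called with the block (adjusted p = 0.0268) and without 5-day replicate 3 (adjusted p = 0.0209). Hnf4a, a regulator of liver and gut genes, had means between -3.45 and -3.43 at all 3 ages. Its paralogue Hnf4g was above background on no array.

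Of the 4 receptors of the circadian clock, Nr1d1 and Rora rose at 12 against 5 days, Nr1d2 was not called and Rorb was not tested. Nr1d1, or REV-ERB alpha, is a haem-binding repressor in the second loop of the clock, and Rora activates through the same elements. Nr1d1 read -2.90, -2.56 and -1.59 at 5 days, -0.06, -0.52 and 0.51 at 12 days, and -2.20, -1.22 and -1.50 at 60 days. Every 12-day array was above every array of the other ages, while the 5-day and 60-day arrays overlapped. Nr1d1 rose by 2.33 ± 0.45 at 12 against 5 days (5.02-fold, adjusted p = 0.00606) and fell by 1.62 ± 0.45 at 60 against 12 days (3.07-fold, adjusted p = 0.0216), and the difference of 0.71 ± 0.45 at 60 against 5 days was not called (adjusted p = 0.25). The rise was lost without replicate 1 or replicate 2 (adjusted p = 0.0712 and 0.0629). The fall was lost without 12-day replicate 1 (adjusted p = 0.0553) or 3 (0.0802), without 60-day replicate 1 (0.0708), and without any 1 replicate number (0.0587 to 0.124).

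The means of Rora had the same order, with values of -2.69, -3.69 and -4.16 at 5 days, -1.38, -1.93 and -2.38 at 12 days, and -2.30, -3.28 and -3.22 at 60 days. The 12-day arrays stood above the 5-day arrays but overlapped those at 60 days. Rora rose by 1.62 ± 0.46 at 12 against 5 days (adjusted p = 0.0448), a call that sat at the threshold. It was lost under median scaling (adjusted p = 0.0585), and leaving out any of 7 single arrays took the adjusted p to between 0.0511 and 0.166, the highest without 12-day replicate 1. At 60 against 12 days the difference of -1.04 ± 0.46 was called only with the slide as a block (adjusted p = 0.0183, against 0.132 without). Nr1d2, the partner of Nr1d1, read -3.02, -2.16 and -3.51 at 5 days, -2.68, -1.32 and -2.43 at 12 days, and -3.70, -2.68 and -2.69 at 60 days, with overlapping ages and no call. No array had Rorb well above background.

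Of 11 other clock genes tested, 1 rose and 0 fell at 12 against 5 days, 0 rose and 1 fell at 60 against 12 days, and 0 rose and 1 fell at 60 against 5 days. The riser was Nfil3, a repressor of D-box genes whose own transcription is driven through ROR elements, with means of -0.75 at 5 days, 0.85 at 12 days and -0.04 at 60 days. Its change of 1.61 ± 0.38 at 12 against 5 days (adjusted p = 0.018) was lost without any 1 of 4 arrays (adjusted p up to 0.0777, without 12-day replicate 1) and under spike-in scaling (0.788). Bhlhe41, an E-box repressor, fell by 2.33 ± 0.32 at 60 against 12 days (adjusted p = 0.000394, or 0.245 under spike-in scaling) and by 2.08 ± 0.32 at 60 against 5 days (0.000466). The core genes Cry1 and Bhlhe40 were not called, with Cry1 means of 1.02 at 5 days, 2.00 at 12 days and 1.96 at 60 days.

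Nr0b2, the small heterodimer partner, is a receptor without a DNA-binding domain that represses Nr5a2 and other receptors in liver. It read 0.58, 0.23 and -0.16 at 5 days, 1.73, 1.51 and 1.52 at 12 days, and 0.72, 0.21 and -0.29 at 60 days. The 12-day arrays stood above all others and lay close together (SD 0.12, n = 3). Nr0b2 rose by 1.37 ± 0.36 at 12 against 5 days (2.58-fold, adjusted p = 0.0289) and fell by 1.37 ± 0.36 at 60 against 12 days (2.58-fold, adjusted p = 0.0163), and its 60-day and 5-day means were both 0.22. The first call was lost without any 1 of 5 arrays, which were all 3 at 12 days and replicates 2 and 3 at 5 days (adjusted p = 0.0634 to 0.0996). The second was lost without 12-day replicate 1 (0.0549) or the 60-day arrays of replicate 2 (0.0516) or 3 (0.0697).

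Nr5a2, or LRH-1, a phospholipid-binding receptor of steroid and bile acid synthesis genes, did not exceed background at 5 days on any array. Its signals were -6.28, -6.29 and -6.17 at 5 days, -3.86, -3.99 and -4.00 at 12 days, and -5.18, -4.25 and -3.33 at 60 days. All arrays of both later ages were higher than those at 5 days, and 2 of 3 were well above background at each. At 12 against 5 days Nr5a2 was at least 1.04-fold higher (measured means -3.95 and -6.25, adjusted p = 0.00529). At 60 against 5 days it was called higher with measured means of -4.25 and -6.25 (adjusted p = 0.00388), and the bound gives no fold. Both calls were lost without replicate 2 (adjusted p = 0.099 and 0.0618). Under normexp correction of replicates 1 and 3 the 60-day difference turned to -0.07.

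The remaining lipid sensors varied less. Nr1h2, an oxysterol receptor (LXR beta), read 1.20, 1.68 and 2.89 at 5 days, 2.51, 1.43 and 3.23 at 12 days, and 2.31, 3.31 and 3.10 at 60 days, with overlapping ages and no call. Nr1h3, or LXR alpha, read -0.05, -0.58 and -1.16 at 5 days, -1.63, -1.48 and -1.81 at 12 days, and -0.64, -0.83 and -1.53 at 60 days. Its 12-day arrays lay below its 5-day arrays, and the difference of -1.05 ± 0.38 was called only with the slide as a block (adjusted p = 0.0359, against 0.112 without) or under spike-in scaling (0.0238). Ppard, a fatty acid receptor, stayed between -3.81 and -3.29 in its means. Ppara, Nr1h4 (the bile acid receptor), Nr1i2, Nr1i3 (receptors of foreign compounds) and Vdr did not pass the filter.

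Target genes of these receptors, from lists of textbook targets, moved both ways. Of 9 LXR targets tested, 0 rose and 1 fell at 12 against 5 days, 1 rose and 3 fell at 60 against 12 days, and 0 rose and 5 fell at 60 against 5 days. The riser was Lpcat3, a phospholipid acyltransferase, with 1.33 ± 0.34 (adjusted p = 0.0141, at most 0.0581 with 1 array left out, 60-day replicate 2). Apoe, the lipid carrier, fell by 3.86 ± 0.33 at 12 against 5 days (adjusted p = 6.59e-05) and averaged 6.66 at 5 days, 2.80 at 12 days and 1.94 at 60 days. Scd, a fatty acid desaturase, fell by 5.58 ± 0.45 at 60 against 5 days (adjusted p = 5.56e-06). Srebf1, the regulator of fatty acid synthesis, fell by 1.65 ± 0.37 in the same comparison (adjusted p = 0.00522, at most 0.0697 with 1 replicate number left out). Lpl, lipoprotein lipase, averaged -2.41 at 5 days, -0.70 at 12 days and -5.39 at 60 days, and its change of -4.69 ± 0.84 at 60 against 12 days was called (adjusted p = 0.00203). Macrophage markers went the same way only in part. Of 9, 0 rose and 7 fell at 12 against 5 days, and 1 rose and 6 fell at 60 against 5 days. At 60 against 12 days, where 1 LXR target rose and 3 fell, 4 of the macrophage markers rose and 0 fell. The macrophage sum was 6.79 to 11.7 at 5 days, 2.29 to 2.68 at 12 days and 3.24 to 3.86 at 60 days, and the part of these cells in the LXR targets was not tested.

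Among 12 PPAR targets, 0 rose and 3 fell at 12 against 5 days, 2 rose and 0 fell at 60 against 12 days, and 0 rose and 2 fell at 60 against 5 days. Angptl4, an inhibitor of lipoprotein lipase, fell at 12 against 5 days and rose at 60 against 12 days, with means of -0.48 at 5 days, -2.37 at 12 days and -1.02 at 60 days (adjusted p = 0.00597 and 0.0186, the second lost without any 1 of 3 arrays, at most 0.083 without 60-day replicate 2). Cd36, a fatty acid transporter, was at least 1.32-fold lower at 12 against 5 days (means -5.55 and -3.73, adjusted p = 0.0107), a call lost without 12-day replicate 1 (0.0502). Both vitamin D targets tested fell at 60 against 5 days: S100g, a calcium-binding protein, was at least 5.36-fold lower (means -6.84 and -2.29, adjusted p = 6.18e-06), and Spp1, or osteopontin, fell by 1.93 ± 0.54 (adjusted p = 0.0162, and at most 0.0701 with 1 array left out, 60-day replicate 2).

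Among steroid receptors, the glucocorticoid receptor Nr3c1 fell with age while the mineralocorticoid receptor Nr3c2 rose. Nr3c1 read 2.74, 2.24 and 1.50 at 5 days, 1.49, 1.75 and 1.57 at 12 days, and 0.85, 0.14 and 0.33 at 60 days. All 60-day arrays lay below all others, and the younger ages overlapped. Nr3c1 fell by 1.72 ± 0.38 at 60 against 5 days (3.29-fold, adjusted p = 0.00454), a call lost without replicate 2 (adjusted p = 0.0917). At 60 against 12 days the change of -1.16 ± 0.38 was called narrowly (adjusted p = 0.0457). It was not called in the authors' deposited values (adjusted p = 0.0632), under median scaling (0.0627), or without any 1 of 6 arrays (0.0674 to 0.149, the highest without 60-day replicate 2). Its second probe gave changes of -1.25 at 60 against 12 days and -1.51 at 60 against 5 days (adjusted p = 0.0222 and 0.0057 with every probe tested). Both probes lie on chromosome 18 of rn4, at chr18:32371565-32371626 and chr18:32371932-32371991.

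Nr3c2 had levels of -3.00, -3.41 and -2.93 at 5 days, -1.45, -1.71 and -1.25 at 12 days, and -1.79, -2.11 and -1.66 at 60 days. Every array of the later ages stood above every 5-day array, and the later ages overlapped each other. Nr3c2 rose by 1.64 ± 0.31 at 12 against 5 days (3.12-fold, adjusted p = 0.00581) and by 1.25 ± 0.31 at 60 against 5 days (2.39-fold, adjusted p = 0.00901). Within the slides the first difference was 1.54, 1.70 and 1.68. Both calls were lost without any 1 replicate number, which leaves 2 arrays an age (adjusted p = 0.0574 to 0.102 and 0.0544 to 0.093), and held when single arrays were left out. With normexp on replicates 1 and 3 the differences were 0.63 and 0.23 and were not called (adjusted p = 0.44 and 0.657). A second Nr3c2 probe was well above background on 0 of 9 arrays and was not tested. Its means were -5.35 at 5 days, -6.15 at 12 days and -5.92 at 60 days. The progesterone receptor Pgr was well above background on 4 of 9 arrays and was not called, and neither oestrogen receptor, Esr1 or Esr2, exceeded background on any array.

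Of 7 glucocorticoid targets, 0 were called at 12 against 5 days, 0 rose and 2 fell at 60 against 12 days, and 0 rose and 3 fell at 60 against 5 days. In the last comparison the changes were -1.83 ± 0.34 for Errfi1, a feedback inhibitor of the EGF receptor (adjusted p = 0.00148), -1.62 ± 0.48 for Dusp1, a phosphatase of MAP kinases (0.0213), and -1.37 ± 0.40 for Tsc22d3, or GILZ (0.0207). Leaving out 1 array ended the calls of Dusp1 (at most 0.0817, without 60-day replicate 3) and Tsc22d3 (at most 0.0847, without 60-day replicate 2), and that of Tsc22d3 was also lost under spike-in scaling (0.092). Fkbp5, a chaperone of the glucocorticoid receptor, averaged 3.55 at 5 days, 2.76 at 12 days and 3.21 at 60 days and was not called. Of 3 oestrogen targets, Igfbp4 fell by 6.62 ± 0.60 at 60 against 5 days (adjusted p = 1.16e-05), and Ccnd1, or cyclin D1, changed by -1.96 ± 0.68 (0.044, lost without any 1 of 5 arrays, 0.147 without 60-day replicate 2).

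**Figure D4:**
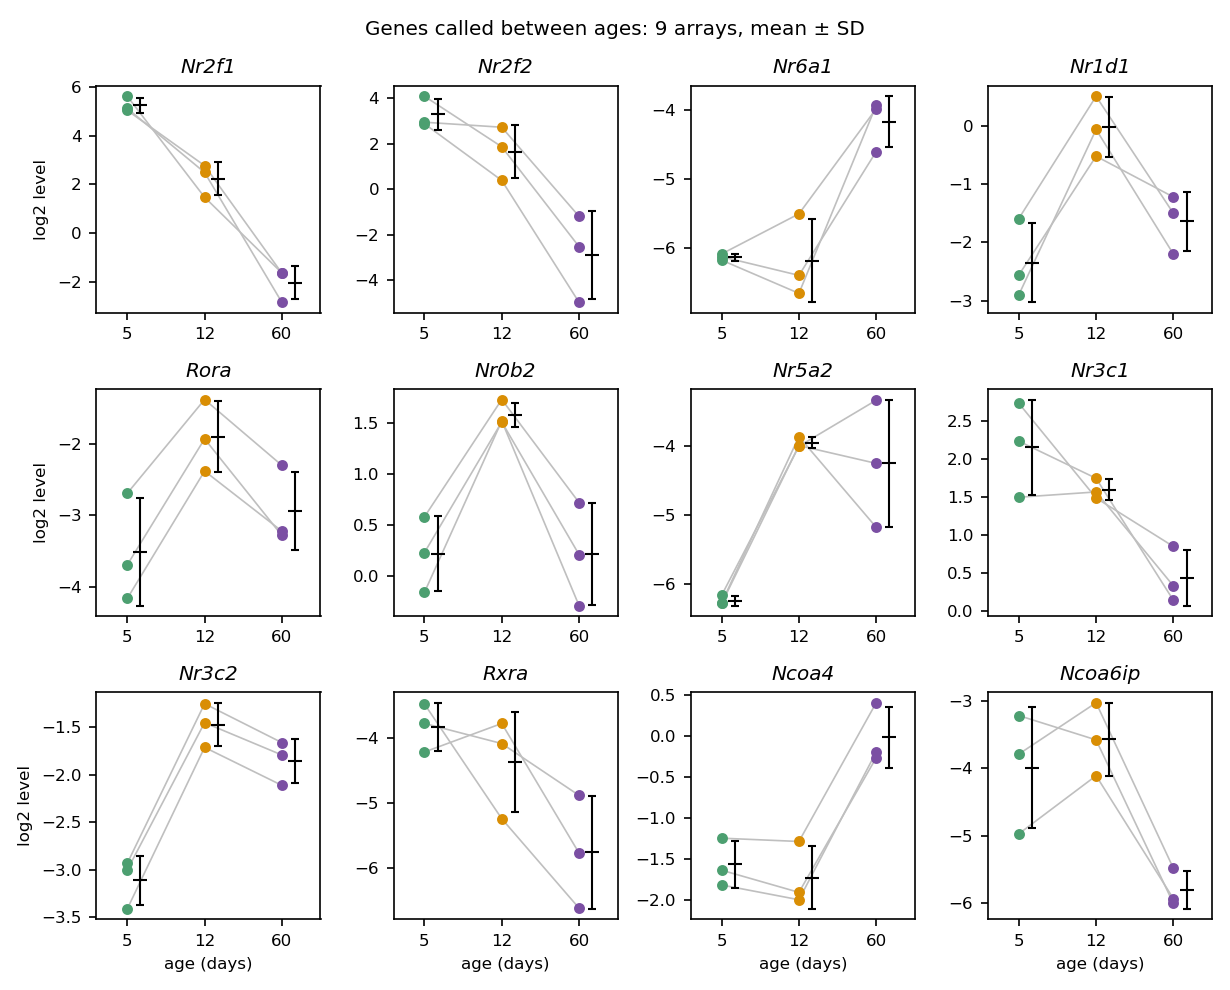
The 12 genes called in at least 1 comparison, each in a panel of its own with its own vertical scale, as log2 level relative to the 75th percentile against age. Points are arrays, grey lines join arrays of one slide, and black bars are the mean ± SD of 3 arrays. Nr2f1, Nr2f2 and Nr3c1 are lowest at 60 days, Nr1d1 and Nr0b2 are highest on all 12-day arrays, and Nr5a2 and Nr3c2 are lowest at 5 days.

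Retinoid receptors showed 1 call. Rxra, a partner of many receptors, read -4.21, -3.77 and -3.47 at 5 days, -3.77, -4.08 and -5.24 at 12 days, and -5.77, -4.88 and -6.62 at 60 days, and was well above background on 2, 2 and 0 arrays. All 60-day arrays lay below the 5-day arrays. Rxra was at least 1.81-fold lower at 60 against 5 days (measured means -5.76 and -3.82, adjusted p = 0.0126), a call lost without 60-day replicate 3 (adjusted p = 0.0506). At 60 against 12 days Rxra was not called (adjusted p = 0.072) and the ages overlapped, though its means gave a bound of 1.24-fold lower. That difference was called with the slide as a block (0.0386), without 12-day replicate 3 (0.0306) or without 60-day replicate 2 (0.0355).

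Rarb, itself induced by retinoic acid, read -2.64, -3.24 and -2.50 at 5 days, -3.19, -3.31 and -2.04 at 12 days, and -4.74, -4.13 and -3.04 at 60 days. The 60-day array of replicate 3 overlapped the younger ages. Its differences of -1.18 ± 0.50 at 60 against 5 days and -1.13 ± 0.50 at 60 against 12 days were called with the slide as a block (adjusted p = 0.0201 and 0.0315) and not without it (0.0923 and 0.129). Leaving out that 60-day array gave calls as well (0.0269 and 0.043). Rara, the retinoic acid receptor that Sertoli cells are known for in mice, read -3.36, -1.81 and -1.87 at 5 days, -2.48, -2.39 and -2.45 at 12 days, and -3.07, -1.89 and -1.95 at 60 days. Rxrb, a further partner receptor, read -2.77, -1.88 and -0.58 at 5 days, -1.27, -2.35 and -0.86 at 12 days, and -1.85, -0.60 and -0.62 at 60 days. The ages overlapped for both, and neither was called.

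Of 8 retinoic acid targets, 1 rose and 3 fell at 12 against 5 days, 3 rose and 0 fell at 60 against 12 days, and 2 rose and 2 fell at 60 against 5 days. Crabp2, which carries retinoic acid to the nucleus, fell by 3.61 ± 0.36 at 12 against 5 days (adjusted p = 0.000148) and averaged 4.72 at 5 days, 1.11 at 12 days and 0.72 at 60 days. Cyp26a1, which degrades retinoic acid, was not well above background at 5 or 12 days and was at least 3.22-fold higher at 60 against 12 days (means -2.44 and -5.29, adjusted p = 0.000119). Rec8, a meiotic cohesin of germ cells, was at least 3.82-fold higher at 12 against 5 days (means -2.08 and -4.83, adjusted p = 0.00156, or 0.172 under spike-in scaling). Dhrs3, a retinaldehyde reductase, averaged 0.56 at 5 days, -1.53 at 12 days and 1.17 at 60 days, with a fall (adjusted p = 0.0115) and then a rise (0.00129). Spermatocyte markers rose alongside Rec8, with 9 of 12 called higher at 12 against 5 days, and their part in it was not tested.

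Oestrogen-related receptors and the Ppargc1 coactivators drive mitochondrial genes. Esrra read 3.55, 2.93 and 2.95 at 5 days, 3.46, 3.18 and 3.48 at 12 days, and 3.99, 3.53 and 3.67 at 60 days, and its difference of 0.59 ± 0.32 at 60 against 5 days was called only under quantile normalization (adjusted p = 0.0344, against 0.183). Ppargc1b read -6.03, -3.06 and -1.81 at 5 days, -1.91, -3.59 and -1.93 at 12 days, and -2.57, -1.04 and -1.74 at 60 days. The 5-day arrays were the most scattered (SD 2.17, n = 3), and without 5-day replicate 3 the difference at 60 against 5 days was called (2.76, adjusted p = 0.0329, against 1.85 and 0.149 with it). A second Ppargc1b probe, well above background on 4 of 9 arrays, changed by -0.14 there (adjusted p = 0.77 with every probe tested). No array had Esrrb, Esrrg or Ppargc1a well above background.

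Of 13 ERR and PGC-1 targets, 0 were called at 12 against 5 days, 2 rose and 2 fell at 60 against 12 days, and 3 rose and 2 fell at 60 against 5 days. The values that follow are for the last comparison. Idh3a, an isocitrate dehydrogenase subunit, rose by 1.35 ± 0.32 (adjusted p = 0.00682, or 0.473 under spike-in scaling). Ckmt2, a mitochondrial creatine kinase, fell by 3.60 ± 0.63 (0.00102). Tfam, which maintains mitochondrial DNA, fell by 1.17 ± 0.34 (0.0193, lost without any 1 of 3 arrays, at most 0.0672 without 60-day replicate 2, and 0.146 under spike-in scaling).

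Among the 6 coactivators, Ncoa4 was called. Ncoa6 was called only with the mean of its probes or, in the test of every probe, through a probe other than the brightest. Ncoa4 is known both as an androgen receptor coactivator and as the receptor that delivers ferritin to lysosomes. It read -1.82, -1.64 and -1.25 at 5 days, -2.00, -1.91 and -1.29 at 12 days, and -0.20, -0.27 and 0.40 at 60 days. All 60-day arrays stood above all others, and the younger ages overlapped. Ncoa4 rose by 1.71 ± 0.35 at 60 against 12 days (3.27-fold, adjusted p = 0.00438) and by 1.55 ± 0.35 at 60 against 5 days (2.92-fold, adjusted p = 0.00509). Within the slides the first difference was 1.80, 1.64 and 1.70, and both calls were lost without replicate 2 (adjusted p = 0.0671 and 0.0581).

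The p160 coactivators Ncoa1, Ncoa2 and Ncoa3, which recruit histone acetyltransferases, were not called. Ncoa3 read 0.53, 0.06 and 0.24 at 5 days, -0.23, -0.09 and 0.35 at 12 days, and -0.55, -0.68 and -0.39 at 60 days. Its 60-day arrays lay below all others, and the difference of -0.82 ± 0.31 at 60 against 5 days passed the threshold with the slide as a block (adjusted p = 0.0408, against 0.0634 without) and under median scaling (0.0494). The other Ncoa3 probes changed by 0.10 and -0.55 in that comparison (adjusted p = 0.876 and 0.291 with every probe tested). Ncoa1 had means of -0.70 at 5 days, -0.59 at 12 days and -1.20 at 60 days, and Ncoa2 had -3.19, -2.58 and -2.55 at the same ages. Ncoa5, a coactivator of oestrogen receptors, read 1.55, 1.31 and 2.60 at 5 days, 2.28, 1.06 and 2.68 at 12 days, and 1.27, 2.57 and 2.83 at 60 days, with overlapping ages. Ncoa6, a coactivator of many receptors, read 2.60, 2.24 and 2.62 at 5 days, 3.11, 2.63 and 3.38 at 12 days, and 3.47, 2.78 and 3.03 at 60 days and was not called, though all arrays of both later ages were above every 5-day array.

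Ncoa6 probes disagreed. The probe used above lies at chr3:145887189-145887248 on rn4, and a second at chr3:145901497-145901556 was not called either. The other at chr3:145906705-145906764 averaged -3.22 at 5 days, -1.17 at 12 days and -0.12 at 60 days and was well above background on all 9 arrays. It was higher by 2.05 at 12 against 5 days (adjusted p = 0.00134), by 1.05 at 60 against 12 days (0.0263) and by 3.10 at 60 against 5 days (1.78e-05), in the test of every probe. With the mean of its probes per gene, Ncoa6 was called higher at 60 against 5 days (1.19, adjusted p = 0.00848).

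Ncoa6ip, whose current symbol is Tgs1, binds Ncoa6 and is known as the enzyme that hypermethylates the caps of small nuclear RNAs. It read -3.22, -3.79 and -4.97 at 5 days, -3.58, -3.03 and -4.11 at 12 days, and -6.00, -5.48 and -5.93 at 60 days, when no array was well above background. All 60-day arrays lay below all others. Ncoa6ip was at least 2.20-fold lower at 60 against 12 days (measured means -5.80 and -3.57, adjusted p = 0.00528) and at least 1.64-fold lower at 60 against 5 days (means -5.80 and -3.99, adjusted p = 0.0115). Without replicate 2 both calls were lost (adjusted p = 0.0676 and 0.0721), and the second also without replicate 1 (0.14).

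Neither Ncor1 nor Nrip1 was called in limma's test, where their lowest adjusted p was 0.103, for Nrip1 at 60 against 12 days. Ncor1, the scaffold of the histone deacetylase 3 complex, read 3.13, 3.51 and 3.38 at 5 days, 4.55, 3.89 and 3.87 at 12 days, and 3.84, 3.69 and 3.49 at 60 days. Its 12-day arrays stood above all others, with a difference of 0.76 ± 0.32 against 5 days (adjusted p = 0.173), and none of its 5 probes was called. Nrip1, a corepressor of metabolic genes also called RIP140, read 0.76, 0.77 and 0.86 at 5 days, 1.15, 1.38 and 1.86 at 12 days, and 0.48, 0.32 and 1.11 at 60 days. The Nrip1 difference of -0.82 ± 0.34 at 60 against 12 days was called with the slide as a block (adjusted p = 0.0477). A second Nrip1 probe changed by -0.12 in that comparison (adjusted p = 0.943 with every probe tested).

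Proteins that work with these coregulators changed in part. Of 17 partners of corepressors, 0 were called at 12 against 5 days, 0 rose and 2 fell at 60 against 12 days, and 2 rose and 2 fell at 60 against 5 days. Ctbp2, a corepressor that binds NADH, fell by 3.03 ± 0.55 at 60 against 5 days (adjusted p = 0.00125) and Hdac7, a class IIa deacetylase, changed by -1.47 ± 0.49 (0.0385), while Sin3a, a deacetylase scaffold, rose by 1.26 ± 0.37 (0.0208) and Hdac1 by 1.15 ± 0.39 (0.0426). The calls of Hdac7, Sin3a and Hdac1 were each lost with 1 array left out (at most 0.134 for Hdac7 without 5-day replicate 3, 0.0754 for Sin3a without 5-day replicate 1 and 0.145 for Hdac1 without 60-day replicate 2) and under spike-in scaling (0.0699, 0.531 and 0.599). Of 17 partners of coactivators, 1 rose and 0 fell at 12 against 5 days, 2 rose and 1 fell at 60 against 12 days, and 3 rose and 0 fell at 60 against 5 days. Med14, a Mediator subunit, was the one that fell (-1.38 ± 0.41, adjusted p = 0.0321, lost without any 1 of 4 arrays, at most 0.116 without 60-day replicate 2, and 0.756 under spike-in scaling). The 3 risers at 60 against 5 days were Nsd1, a histone methyltransferase (1.98 ± 0.34, adjusted p = 0.00099), Tacc1 (1.80 ± 0.33, 0.00138) and Smarca4, the BRG1 remodelling ATPase (1.56 ± 0.52, 0.0391, lost without any 1 of 4 arrays, at most 0.145 without 5-day replicate 1). Under spike-in scaling these 3 were not called (Nsd1 0.169, Tacc1 0.241, Smarca4 0.356). Cited2, a regulator of the acetyltransferases CBP and p300, rose by 2.19 ± 0.51 at 12 against 5 days (adjusted p = 0.017, at most 0.0718 with 1 array left out, 5-day replicate 2, and 0.376 under spike-in scaling).

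Of the 13 genes that did not pass the filter, 9 had no array well above background and 4 had 1 or 2. Nr1i2 was above background on 1 array at 60 days, with -3.48 on replicate 1. Vdr was above background on 1 array at 60 days, with -3.99 on replicate 2, and Rxrg on 1 at 12 days, with -2.30 on replicate 2. Nr1i3 was so on 1 array at 12 days and 1 at 60 days, with -3.27 and -4.20, both on replicate 1. In each case the other arrays of that age lay lower, so these signals were not shared by replicates.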

How the data were processed

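Cy3-labelled RNA of 9 samples was hybridised to 4x44k arrays, 1 colour each, per the labels' protocols. The deposited scanner files hold intensity values, which the authors obtained with Agilent Feature Extraction (9.5.3.1 for replicate 1, 10.5.1.1 for replicates 2 and 3), per the file headers. The deposited value table holds log2 values equal to log2 intensity minus 1 constant per array within 0.01 for 99.76% to 99.82% of probes, the constant lying within 0.022 of the log2 75th percentile, and was an alternative.

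Here, each array was divided by the 75th percentile of its processed signals. Of 41012 probes, 254 with outlier flags were dropped, none of a member. A probe had to exceed background on 2 of the 3 arrays at some age, and the brightest probe (by mean) represented its gene. limma 3.58.1 (R 4.3.3) estimated 1 mean per age from 9 arrays, 2-sided. Simulated data with known changes served to test the script. Folds of genes below background at an age are bounds against the higher of their own signal and the lowest one above background. Probe coordinates were taken from the replicate 3 files, whose headers name build rn4 (those of replicate 1 name rn3), and promoters are RefSeq's on GRCr8.

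Same-numbered arrays deviated together (correlation 0.181 to 0.601, at most 0.094 for different numbers), and each number is a slide, so numbers pair the arrays. The number of arrays limits the precision.

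Members, roles, target lists and markers were chosen with earlier results of these data known. Values on each array were due for called members, members with a bound and the 2 brightest per role, and up to 4 genes per target list were named, called ones first. Genes named outside that rule were chosen after their values were seen. Alternatives changed scaling, background, filter, probe choice, slide block and arrays. A few genes that count in the totals are not reported here.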

Additional observations from a re-analysis of the deposited data

How the results depend on the processing

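Of the 23 calls of members, 23 were kept with the replicate block, 22 in the deposited table, 22 under quantile normalization, 21 under median scaling and 20 with no filter. The block raised the members called at 60 against 12 days to 13, or 39.4%, while all genes called there went to 34.2%, and it ended no call. Spike-in scaling kept 10. Leaving out replicate 2 kept 7, and normexp background on the same 6 arrays, whose files hold mean signals, kept 8. Between these settings, the calls of Nr6a1 and Rxra at 60 against 5 days were kept only without replicate 2. Those of Nr1d1 at 60 against 12 days, and of Nr3c1 and Ncoa4 at 60 against 5 days, were kept only with normexp. On the 6 arrays without normexp, Nr5a2 differed by 1.97 at 60 against 5 days and Nr6a1 by 1.65 at 60 against 12 days. With normexp and its offset of 50, 3 calls turned round, to -0.07 for Nr5a2 at 60 against 5 days, and for Nr6a1 to -0.28 at 60 against 12 days and -0.18 at 60 against 5 days. These are dim probes, and neither the cause nor the part of the offset was tested.

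In the order 12 against 5, 60 against 12, 60 against 5 days and any age, normexp on 6 arrays called 769, 2278, 3888 and 3607 genes, and 1, 3, 4 and 4 members. Keeping genes above background on all 9 arrays, fewer genes by construction, called 1528, 3246, 4475 and 4682 genes, with 5 members at 60 against 12 days, 4 at 60 against 5 days and 6 at any age. Spike-in scaling called 3596 genes at 60 against 12 days and 4824 at 60 against 5 days, and 3, 4, 5 and 7 members. The cause of the spike-in differences was not tested.

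Leaving out 1 replicate number, which leaves 2 arrays an age, called 849 to 1552, 2768 to 4377, 4910 to 6388 and 4623 to 6012 genes, and 1 to 3, 2 to 7, 4 to 8 and 3 to 9 members. The lowest of each gene range came without replicate 2. Leaving out 1 array called 1892 to 3077, 4232 to 5699, 6438 to 7996 and 6507 to 7912 genes, and 4 to 6, 5 to 8, 9 to 11 and 10 to 12 members. Signal near background limits the called genes Nr6a1, Nr5a2, Rxra and Ncoa6ip, among others, since some of their arrays were not well above it.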
